A study of Rattus norvegicus with 10 samples.

Results

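The genes described here encode enzymes and a carrier of retinoid metabolism in rat liver: Aldh1a7, Aldh1a1, Cyp26a1, Cyp26b1, Rbp4, Lrat, Dhrs3 and Rdh16. They were chosen by symbol, and selected on known values of the same contrast that is described below, the difference in hepatic level between Eisai hyperbilirubinemic rats (EHBR) and Sprague-Dawley (SD) rats. Of the 8 symbols, 7 were found among the 32883 genes of the deposited tables, and Rdh16 had no row under its symbol. One strain was represented by livers of 5 EHBR males, a mutant line that arose in SD rats and has no functional Mrp2, the bile canalicular efflux pump encoded by Abcc2. It was compared with livers of 5 SD males of the same age, 5 weeks, and no sample of either strain is labelled as treated. Whether each library comes from a separate animal is not stated in the labels, so a p-value refers to variation among these libraries, which may be partly technical. Strain and the loss of Mrp2 cannot be told apart in these samples.

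The liver stores vitamin A as retinyl esters, mostly in hepatic stellate cells. Lrat makes those esters, Rbp4 carries retinol from hepatocytes into blood, and short-chain dehydrogenases such as Dhrs3 and Rdh16 interconvert retinol and retinal. Aldehyde dehydrogenases of the Aldh1a family oxidise retinal to retinoic acid, the ligand of nuclear receptors. Cyp26 enzymes then clear retinoic acid, and Cyp26a1 is a classical retinoic acid target, induced through direct repeats of a hexamer bound by those receptors.

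Upstream sequences of both Cyp26 members are shown because Cyp26a1 carried such a repeat next to its start site and Cyp26b1 did not. They are the 250 bases before the annotated start from RefSeq on the reference assembly GRCr8, written 5′ to 3′ along the gene, with matches to the hexamers searched in capitals. They are reference sequence and were not read from EHBR or SD rats. The window of Cyp26a1 is chr1:244883572-244883821 on the plus strand, and that of Cyp26b1 is chr4:118616177-118616426 on the minus strand.
Cyp26a1: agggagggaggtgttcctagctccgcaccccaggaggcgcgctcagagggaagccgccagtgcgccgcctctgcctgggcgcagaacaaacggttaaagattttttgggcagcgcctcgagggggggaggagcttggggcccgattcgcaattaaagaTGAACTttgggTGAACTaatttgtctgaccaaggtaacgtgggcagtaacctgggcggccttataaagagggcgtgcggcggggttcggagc
Cyp26b1: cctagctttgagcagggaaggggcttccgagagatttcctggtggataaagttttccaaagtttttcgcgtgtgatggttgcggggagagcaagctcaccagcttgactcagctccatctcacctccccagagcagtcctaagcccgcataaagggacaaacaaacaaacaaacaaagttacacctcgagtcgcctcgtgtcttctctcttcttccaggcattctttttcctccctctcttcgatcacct
The hexamers searched were AGGTCA and AGTTCA, and also GGGTCA and GGTTCA, on both strands, over a window that ended 50 bases after the start. In Cyp26a1, a pair of hexamers in the same direction, separated by 5 bases, lay from 92 to 76 bases upstream of the start and read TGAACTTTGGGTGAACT on the strand of the gene. On the opposite strand this is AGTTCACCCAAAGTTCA. A promoter was found in the RefSeq table for 6 members, and none of the other 5 held a pair with this spacing. Of all 33469 promoters of the same length, 128 held one, which is 0.382%. A single hexamer occurred in 44.4% of all promoters, and Cyp26b1, Rbp4, Lrat and Dhrs3 had none in this window. A match describes the letters only.

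Reads assigned to genes numbered 13.8 to 17.6 M in the EHBR samples and 15.6 to 19.6 M in the SD samples. Levels are in TPM, which divides by gene length and scales every sample to one total, so that levels of different genes can be set side by side. Differences are given as EHBR minus SD on the scale log2(TPM + 1), on which a weakly expressed gene shows less than its true change. A gene was tested where 5 or more samples reached 1 TPM, which left 11083 genes, and their median difference on this scale was 0.15. The same median was 0.07 in FPKM and 0.01 in upper-quartile FPKM. Quantile normalisation brought it to 0.01, and centring each sample on its median brought it to -0.02. Abcc2 (chromosome 1, bases 263554453 to 263613252 of rn6) showed 17.2, 17.6, 12.3, 11.9 and 10.1 TPM in EHBR samples 1 to 5. In SD samples 1 to 5 its level was 199, 224, 271, 60.0 and 66.4 TPM, so no EHBR sample came near the lowest SD sample. A division between samples numbered 1 to 3 and samples numbered 4 and 5 was seen in these data in both strains. What the numbers stand for is not given in the labels, so differences are also given within each set.

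Across the members, Aldh1a7 and Cyp26a1 had the largest differences in favour of EHBR on the log2(TPM + 1) scale, Cyp26b1 was higher at a very low level, and Aldh1a1 differed between the sets of numbers, and Rbp4, Lrat and Dhrs3 differed little. By mean TPM the order in EHBR was Rbp4, Aldh1a1, Dhrs3, Aldh1a7, Lrat, Cyp26a1 and Cyp26b1, and in SD Lrat stood above Aldh1a7. Among neighbours in that order, the sample ranges overlapped in EHBR for Dhrs3 with Aldh1a7 and for Lrat with Cyp26a1. In SD they overlapped for Aldh1a1 with Dhrs3, Lrat with Aldh1a7 and Aldh1a7 with Cyp26a1. Of the 7 members found, 6 passed the filter on low levels, and Cyp26b1 did not. Of those 6, 2 were called higher in EHBR by the limma fit over all genes and 0 lower, where 3.82% of all tested genes were called higher, 1.63% lower and 5.45% in either direction. In 1 of the 6, Aldh1a7, every EHBR sample lay above every SD sample, as in 6.45% of all tested genes. Since the members were selected on this contrast, these counts describe them and are read no further.

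**Figure D1:**
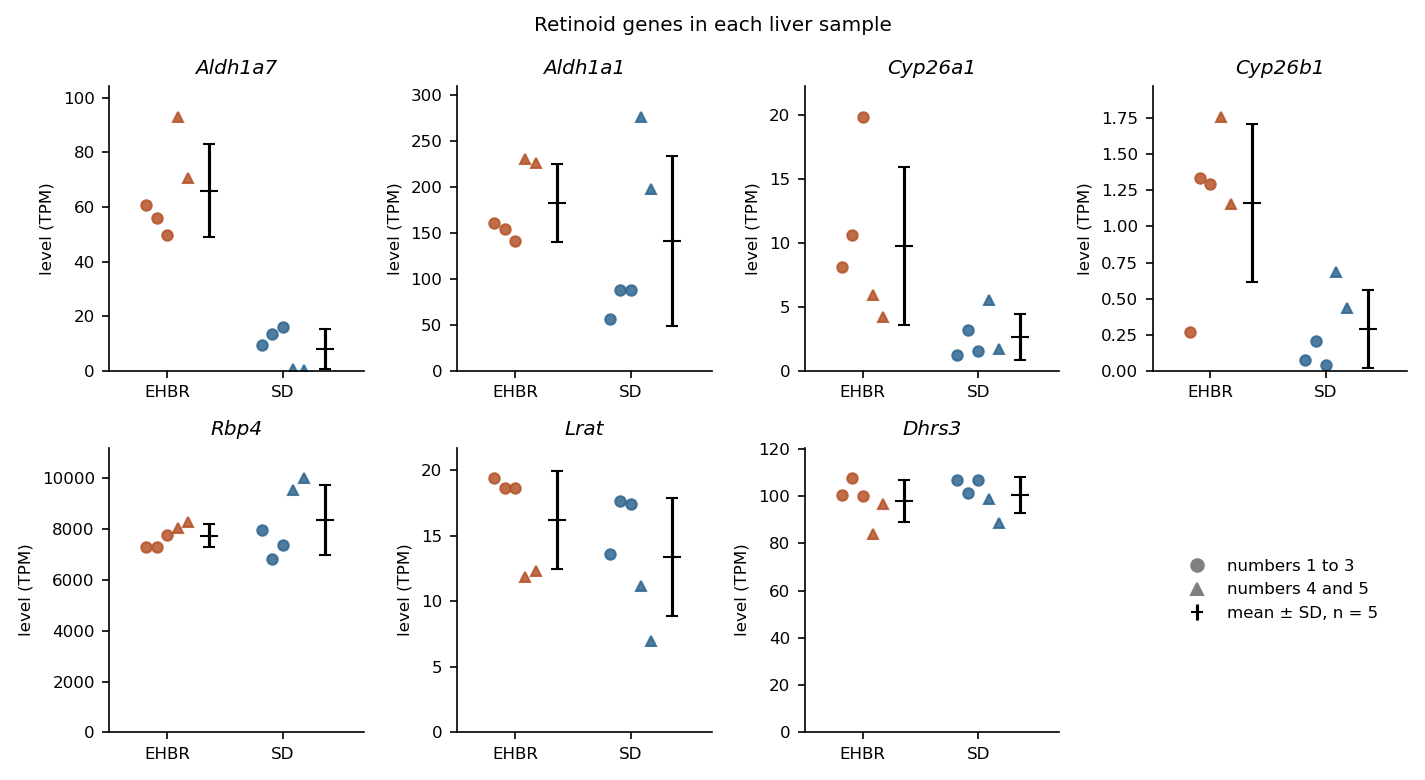
Level in TPM (vertical axis, linear, from 0) of the 7 members found, in the 5 EHBR samples and the 5 SD samples; circles are samples numbered 1 to 3, triangles those numbered 4 and 5, and bars show mean ± SD. Aldh1a7 separates the strains completely, at 49.8 to 93.1 TPM in EHBR and 0.282 to 16.2 TPM in SD, while the Aldh1a1 values of SD samples span 56.8 to 277 TPM around those of EHBR.

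Among the genes of transport and storage, Rbp4 was by far the most abundant member. The retinol carrier lies on chromosome 1 from 256806472 to 256813711 on the minus strand (ENSRNOG00000015518, rn6). It showed 7305, 7302, 7744, 8049 and 8293 TPM in EHBR samples 1 to 5, against 7975, 6809, 7380, 9537 and 10004 TPM in SD samples 1 to 5. The groups overlapped, and the highest values in both strains were in samples 4 and 5. The means were 7739 ± 442 TPM in EHBR and 8341 ± 1378 TPM in SD (SD, n = 5 each), a log2 difference of -0.09 (SE 0.13). The sign of this small difference depended on scaling, since quantile normalisation gave 0.14. Within samples 1 to 3 the difference was 0.01, and within samples 4 and 5 it was -0.26.

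Lrat, the acyltransferase that esterifies retinol for storage, lies on chromosome 2 from 181896305 to 181905300 on the minus strand (ENSRNOG00000025608). It showed 19.4, 18.6, 18.7, 11.9 and 12.3 TPM in EHBR samples, against 13.6, 17.7, 17.4, 11.1 and 7.01 TPM in SD samples. The groups overlapped, and samples 4 and 5 were the lowest in both strains, by 0.60 on the log2 scale in EHBR and 0.80 in SD relative to samples 1 to 3. The means were 16.2 ± 3.73 TPM in EHBR and 13.4 ± 4.48 TPM in SD, a log2 difference of 0.29 (SE 0.24). Without SD sample 5 it was 0.10, and after median centring 0.12. Lrat is made by stellate cells, and in bulk liver fewer cells of a type and less RNA per cell cannot be told apart. Of 20 tested stellate cell markers, including Des, Reln and Lhx2, none passed the strain test, and the summed level of all 22 markers was 372.9 to 440.9 TPM in EHBR samples against 300.8 to 492.5 TPM in SD samples. The other 2 markers, Gfap and Ngfr, were below the filter and not tested. Gfap showed 0.572 to 0.793 TPM in EHBR samples against 0.968 to 2.17 TPM in SD samples, and Ngfr 0.00 to 0.191 TPM in EHBR samples against 0.379 to 0.607 TPM in SD samples. Both were lower in every EHBR sample than in any SD sample. No share of all genes lying below SD without overlap was available for comparison. The part of this in the Lrat values was not tested.

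For the retinol and retinal dehydrogenases, levels in the strains were close. Dhrs3, which reduces retinal back to retinol, lies on chromosome 5 from 162808646 to 162843383 on the plus strand (ENSRNOG00000015736). Its level was 100.7, 107.7, 100.3, 83.8 and 96.8 TPM in EHBR samples and 107, 101.3, 106.9, 98.7 and 88.8 TPM in SD samples. These values overlapped throughout, with means of 97.9 ± 8.80 TPM in EHBR and 100.5 ± 7.50 TPM in SD and a log2 difference of -0.04 (SE 0.09). Upper-quartile FPKM and median centring moved it to -0.20 and -0.21, about as far as they moved the median of all genes.

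Rdh16, which oxidises retinol, is a member by name only. A row listed as LOC100365958 (ENSRNOG00000029651), on chromosome 7 from 70980422 to 71072689, carries the NCBI gene ID 299511 that the RefSeq gene table pairs with Rdh16. It showed 143.4, 151.8, 173.7, 148.1 and 173.6 TPM in EHBR samples, against 137.2, 161.9, 157.2, 121.6 and 133.5 TPM in SD samples. Those groups overlapped, with means of 158.1 ± 14.5 TPM in EHBR and 142.3 ± 16.9 TPM in SD. The log2 difference was 0.15, the same as that of the median gene. This row is not counted among the members.

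The aldehyde dehydrogenases held the largest strain difference. Aldh1a7 lies on chromosome 1 from 240562423 to 240601744 on the minus strand (ENSRNOG00000017878). In mouse it is a close relative of Aldh1a1 with little activity toward retinal. Its level was 60.6, 56.0, 49.8, 93.1 and 70.4 TPM in EHBR samples 1 to 5, against 9.47, 13.5, 16.2, 0.771 and 0.282 TPM in SD samples 1 to 5. All EHBR samples lay above all SD samples, and SD samples 4 and 5 lay far below the other SD samples. Those 2 libraries held 16 and 10 reads of Aldh1a7, against 201 to 312 in SD samples 1 to 3 and 1050 to 2067 in the EHBR samples.

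The means of Aldh1a7 were 66.0 ± 16.9 TPM in EHBR and 8.05 ± 7.28 TPM in SD, which is 8.19-fold. The log2 difference was 3.52 (SE 0.68). It was 2.03 within samples 1 to 3 and 5.77 within samples 4 and 5. Samples 4 and 5 were higher than samples 1 to 3 by 0.54 in EHBR, while in SD they were lower, with a difference of -3.19. The deposited TPM of this gene was low relative to the deposited FPKM in EHBR and in SD samples 1 to 3. There the log2 ratio against the median gene of each sample was -0.42 in EHBR and -0.37 in SD. SD samples 4 and 5 did not exceed 5 TPM and were left out of this ratio.

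Aldh1a1, the main cytosolic retinal dehydrogenase of liver, lies on chromosome 1 from 238222521 to 238264330 on the plus strand (ENSRNOG00000017619). It showed 161.3, 154.6, 141.3, 230.5 and 226.6 TPM in EHBR samples, against 56.8, 87.7, 88.4, 277 and 197.6 TPM in SD samples. Within samples 1 to 3 every EHBR value was above every SD value, but SD sample 4 had the highest value of all 10, so the groups overlapped. The means were 182.9 ± 42.4 TPM in EHBR and 141.5 ± 92.7 TPM in SD, a log2 difference of 0.58 (SE 0.37), which was 0.32 without SD sample 1 and 0.88 without SD sample 4. This difference was 0.99 within samples 1 to 3 and -0.03 within samples 4 and 5. Samples 4 and 5 stood above samples 1 to 3 by 0.58 in EHBR and by 1.61 in SD.

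Aldh1a7 and Aldh1a1 are close paralogs, and reads that match both could be assigned to either, so the split between them is uncertain. Added together they gave 221.9, 210.6, 191.1, 323.6 and 297.0 TPM in EHBR samples, against 66.3, 101.2, 104.7, 277.8 and 197.9 TPM in SD samples. The sum averaged 248.8 ± 58.0 TPM in EHBR and 149.6 ± 86.7 TPM in SD, with a log2 difference of 0.89, of 1.21 within samples 1 to 3 and of 0.40 within samples 4 and 5. Aldh1a7 made up 23.7% to 28.8% of the sum in all EHBR samples. In SD samples 1 to 3 it made up 13.4% to 15.5%, and in SD samples 4 and 5 it made up 0.278% and 0.143%. In FPKM, a comparison added after the data were seen, the share was 29.7% to 34.6% in EHBR samples, 16.9% to 19.2% in SD samples 1 to 3 and 0.280% and 0.240% in SD samples 4 and 5. The shares in TPM and FPKM were nearly equal in SD sample 4 but not in the other samples, so the units did not differ by a fixed factor. What sets them apart was not tested. The Aldh1a7 share and its level beside other genes depend on the unit. In both units the share varied little in EHBR and was far lower in SD samples 4 and 5. The genes lie 2.298 Mb apart.

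**Figure D2:**
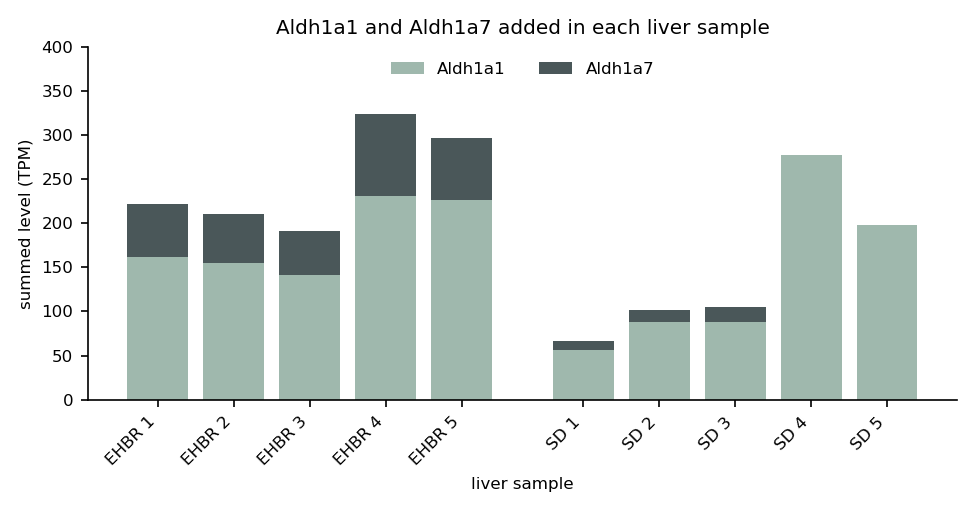
Stacked bars of Aldh1a1 (light) and Aldh1a7 (dark) levels in TPM, summed for each of the 5 EHBR and 5 SD samples; the vertical axis starts at 0. The dark part is visible in every EHBR bar, at 23.7% to 28.8% of the sum, smaller in SD samples 1 to 3, and too thin to see in SD samples 4 and 5.

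Among the retinoic acid hydroxylases, Cyp26a1 was higher in EHBR. This enzyme, the main clearing enzyme of retinoic acid in liver, lies on chromosome 1 from 256382791 to 256386729 on the plus strand (ENSRNOG00000016750). It showed 8.16, 10.6, 19.9, 5.93 and 4.24 TPM in EHBR samples, against 1.24, 3.22, 1.57, 5.51 and 1.73 TPM in SD samples. SD sample 4 exceeded EHBR sample 5, so the groups overlapped by this pair. The libraries held 63 to 383 reads of Cyp26a1 in EHBR and 26 to 133 in SD.

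The means of Cyp26a1 were 9.77 ± 6.15 TPM in EHBR and 2.65 ± 1.77 TPM in SD, which is 3.68-fold, with a log2 difference of 1.51 (SE 0.38), which was 0.89 with 5 TPM added in place of 1. It was 2.17 within samples 1 to 3 and 0.52 within samples 4 and 5. Samples 4 and 5 differed from samples 1 to 3 by -1.11 in EHBR and by 0.54 in SD. EHBR sample 3 had the highest level of all 10 samples.

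Cyp26b1, the form that predominates in many tissues outside the liver, lies on chromosome 4 from 116261796 to 116278615 on the minus strand (ENSRNOG00000015076). Its level was 0.272, 1.33, 1.29, 1.76 and 1.16 TPM in EHBR samples, against 0.0752, 0.208, 0.0444, 0.683 and 0.434 TPM in SD samples. EHBR sample 1 lay among the SD samples, while the other 4 EHBR samples lay above all SD samples. The means were 1.16 ± 0.55 TPM in EHBR and 0.289 ± 0.269 TPM in SD, from 12 to 91 reads per EHBR library and 2 to 41 per SD library. The ratio of these means was 4.02, the log2 difference was 0.73, and at these levels the added 1 TPM reduces the difference. Means of samples 4 and 5 differed from those of samples 1 to 3 by 0.37 in EHBR and by 0.49 in SD. In SD both samples lay above samples 1 to 3, while in EHBR sample 5 lay below samples 2 and 3.

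**Figure D3:**
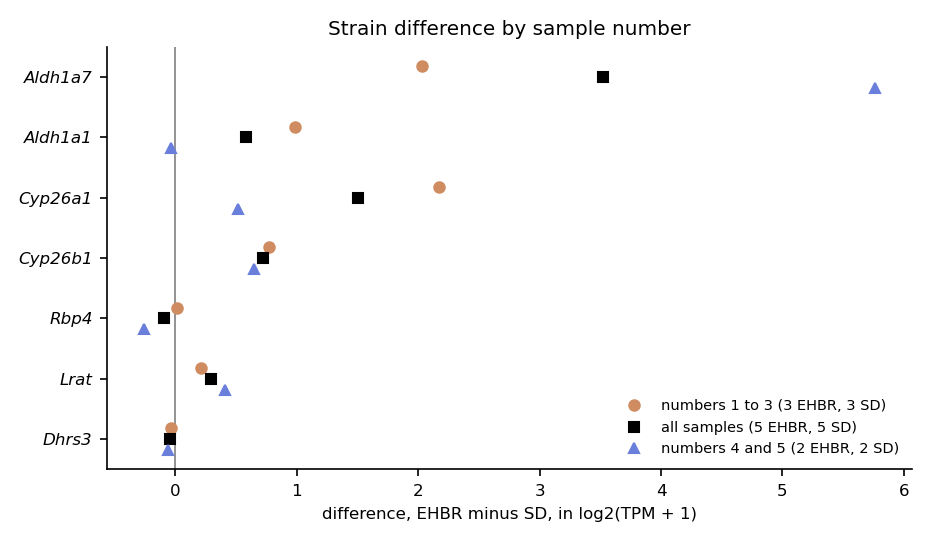
Difference EHBR minus SD in log2(TPM + 1) (horizontal axis) for the 7 members found, in samples 1 to 3 (circles), all samples (squares) and samples 4 and 5 (triangles). Aldh1a7 is further right in samples 4 and 5 (5.77) than in samples 1 to 3 (2.03), while Cyp26a1 (0.52 against 2.17) and Aldh1a1 (-0.03 against 0.99) are the other way round; Lrat, Dhrs3, Rbp4 and Cyp26b1 move less.

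Of the 7 members found, 4 lie on chromosome 1 with Abcc2. In rn6, Rbp4 is 6.741 Mb from Abcc2, Cyp26a1 7.168 Mb, Aldh1a7 22.95 Mb and Aldh1a1 25.29 Mb. Cyp26a1 and Rbp4 are direct neighbours among the tested genes, 0.4197 Mb apart. The 3 nearest tested genes on each side of each member made 35 distinct genes other than members. Of these, 1 was called higher and 1 lower, close to the 5.45% called in either direction over all tested genes. Gda, which encodes guanine deaminase and lies 718.1 kb after Aldh1a1, showed 16.5 ± 4.06 TPM in EHBR and 8.03 ± 2.16 TPM in SD (SD, n = 5 each). The log2 difference of Gda was 0.96 (SE 0.21, adjusted p = 0.0215, limma), at 1.04 within samples 1 to 3 and 0.84 within samples 4 and 5. Rfk, which encodes riboflavin kinase and lies 1721 kb before Aldh1a1, showed 30.7 ± 2.67 TPM in EHBR and 40.4 ± 3.55 TPM in SD. The log2 difference of Rfk was -0.39 (SE 0.10, adjusted p = 0.0438, limma), at -0.34 and -0.46 within the sets. Gda lost its call without EHBR sample 1, 2 or 4 or SD sample 1, and Rfk without any 1 EHBR sample or SD sample 1, 3 or 5.

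None of the nearest tested genes on either side of a member, members aside, passed the test. Next to Aldh1a7 these were Cemip2, with a log2 difference of 0.23, and Klf9, with 0.72. Next to Aldh1a1 they were Anxa1 at -0.28 and Zfand5 at 0.01. Exoc6, 13.98 kb from Cyp26a1, differed by -0.01, and Fra10ac1, 68.06 kb from Rbp4, by 0.00. Cyp26c1 lies between Exoc6 and Cyp26a1 but was below the filter, with overlapping groups averaging 0.779 TPM in EHBR and 0.277 TPM in SD. For Cyp26b1 the neighbours Dysf and Exoc6b differed by 0.41 and 0.05, for Lrat the neighbours Rbm46 and Fgg by 0.45 and -0.15, and for Dhrs3 the neighbours LOC100362149 and Vps13d by -0.23 and 0.21.

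For 4 members, those tested genes were looked up whose levels followed theirs most closely over the 10 samples, among 6648 genes averaging 5 TPM or more with a symbol that is no placeholder. The measure was Pearson's r of log2(TPM + 1), given with r after strain means were removed. The samples share the strains and the division by number, so these values describe the patterns only. For Aldh1a7 they were Cyp39a1 (0.98, and 0.94 after removal), Nomo1 (0.97, 0.92) and Polr3c (0.97, 0.92). Cyp39a1, an oxysterol hydroxylase of bile acid synthesis, showed 80.0 to 89.8 TPM in EHBR samples, 68.0 to 75.9 TPM in SD samples 1 to 3 and 54.5 and 55.1 TPM in SD samples 4 and 5. Like Aldh1a7 it was highest in EHBR and lowest in SD samples 4 and 5, although the order of the samples within these sets was not the same, and it varied far less.

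For Aldh1a1 the closest were Ugt2b10 (0.97, 0.96), Dnajc19 (0.96, 0.96) and Acsm5 (0.95, 0.94). Acsm5, a medium-chain acyl-CoA synthetase, showed 34.8 to 68.9 TPM in EHBR samples, 7.12 to 14.5 TPM in SD samples 1 to 3 and 140.5 and 42.9 TPM in SD samples 4 and 5. For Cyp26a1 they were Tie1 (0.95, 0.89), Soat2 (0.94, 0.86) and Pdcd10 (0.91, 0.76), and for Rbp4 Tbc1d8 (0.97, 0.97), Spa17 (0.97, 0.96) and Uqcr11 (0.96, 0.96). Tie1, an endothelial receptor, ranged from 5.56 to 8.06 TPM in EHBR samples and from 4.15 to 5.82 TPM in SD samples. None of the genes named for their likeness was called over all samples in the fit with strain as its only factor. With numbers 1 to 3 alone, Acsm5, Ugt2b10, Dnajc19 and Pdcd10 were called higher, and Polr3c with numbers 4 and 5 alone. A term for the division by number brought calls for Cyp39a1, Nomo1, Polr3c and Pdcd10. Leaving out SD sample 2 did so for Cyp39a1 and Nomo1. Acsm5 differed by 1.16 in all samples and by 1.81 without SD sample 4, where it was called (adjusted p = 0.0422, limma).

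The rest of the pathway was taken from 8 lists with 89 names, of which 86 matched, in 88 rows, and 60 genes were tested. In EHBR, 7 of the 60 rose and 2 fell, and 51 did not pass the test, so 15.0% were called against 5.45% of all tested genes. Their median log2 difference was 0.12, against 0.15 over all tested genes. The lists were chosen with earlier results of these data known, so these shares describe them and are read no further. With FPKM the counts were 4 higher and 3 lower, and with upper-quartile FPKM or median centring 2 higher and 3 lower. With the numbers 4 and 5 alone they were 3 higher and 0 lower, and of the 9 genes called Stra6l kept its call. Dgat2, Fabp5, Bco1, Adh1 and Adh5 lost their calls with upper-quartile FPKM or median centring. Leaving out EHBR sample 2 gave 3 higher and leaving out EHBR sample 4 gave 4. The genes called belong to the lists of ester and carotene handling, carriers, and alcohol and aldehyde oxidation, and no listed receptor or target gene was among them. Members were left out of these lists. Cyp26a1, a retinoic acid target called higher, was thus not counted here, and it was selected on this contrast.

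**Figure D4:**
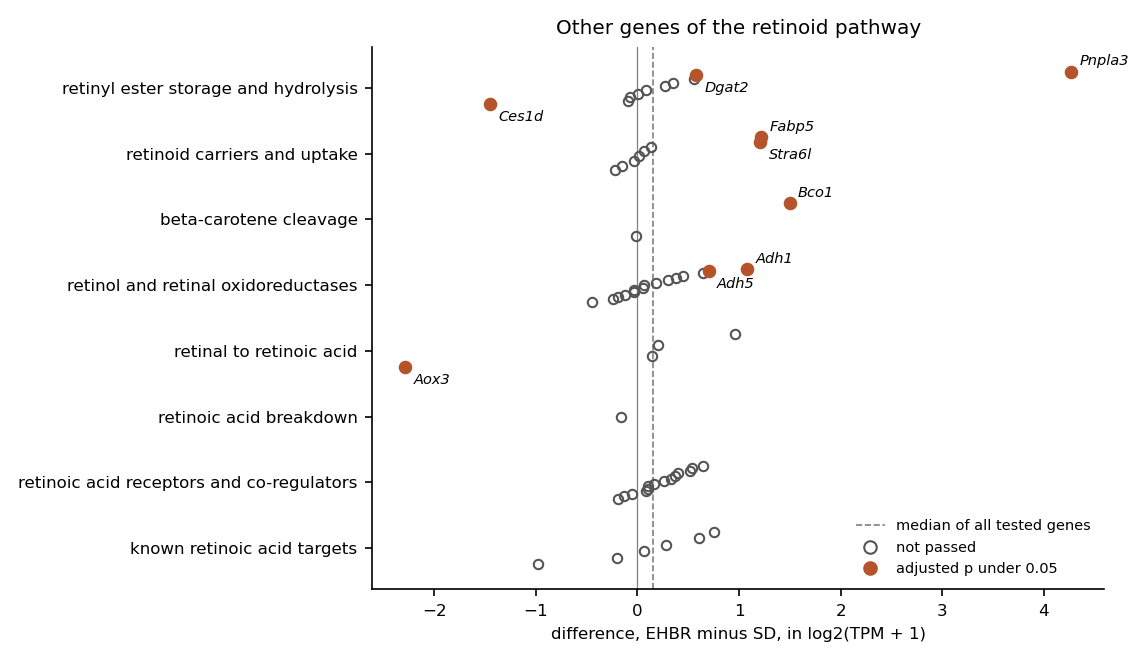
Difference EHBR minus SD in log2(TPM + 1) (horizontal axis) for the 60 tested genes of 8 retinoid lists (rows); filled points have an adjusted p under 0.05 (limma), open points do not, and the dashed line is the median of all tested genes, 0.15. The 7 genes to the right and 2 to the left are labelled, with Pnpla3 at 4.27 and Aox3 at -2.29 farthest out.

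Of 10 tested genes of retinyl ester storage and hydrolysis, 2 rose and 1 fell. Pnpla3, a lipid droplet hydrolase that in human stellate cells also cleaves retinyl esters, showed 284.5, 402.1, 351.9, 520.8 and 277.2 TPM in EHBR samples, against 7.95, 24.1, 12.7, 7.53 and 82.9 TPM in SD samples. The groups were far apart, with SD sample 5 the highest of its strain, and the log2 difference was 4.27 (SE 0.53, adjusted p = 0.000986, limma). Without SD sample 5, or with any other single sample left out, Pnpla3 kept its call. It differed by 4.56 within samples 1 to 3 and by 3.83 within samples 4 and 5.

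Ces1d, a carboxylesterase with retinyl ester hydrolase activity, showed 105.7, 94.4, 107.2, 89.6 and 105.2 TPM in EHBR samples, against 436.3, 289.8, 232.0, 349.5 and 153.4 TPM in SD samples. EHBR samples were low and even, and all lay below the lowest SD sample, and the difference was -1.45 (SE 0.23, adjusted p = 0.00341, limma). It was -1.58 within samples 1 to 3 and -1.25 within samples 4 and 5. Ces1 genes are related paralogs, so some reads may be split among them, which was not tested. Dgat2, which makes triglyceride, averaged 253.3 ± 30.3 TPM in EHBR and 169.9 ± 22.8 TPM in SD. It rose by 0.58 (SE 0.12, adjusted p = 0.0136, limma), with 0.56 and 0.60 within the sets. Dgat1, which can esterify retinol, did not pass (log2 difference 0.27, adjusted p = 0.118, limma).

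Of 8 tested carriers and uptake proteins, 2 rose and 0 fell. Stra6l, a liver receptor for Rbp4 in mouse, showed 66.2, 69.5, 65.5, 66.9 and 61.3 TPM in EHBR samples, against 40.5, 33.3, 30.1, 17.6 and 23.3 TPM in SD samples. Its row, listed as RGD1305807, was matched by NCBI gene ID. EHBR samples were even and SD samples 4 and 5 lowest, the log2 difference was 1.21 (SE 0.18, adjusted p = 0.00287, limma), and it kept its call under all 22 alternatives. It was 0.94 within samples 1 to 3 and 1.61 within samples 4 and 5. Fabp5, a fatty acid binding protein that also carries retinoic acid, showed 273.2, 302.3, 260.8, 376.9 and 279.9 TPM in EHBR samples, against 117.9, 112.4, 84.6, 103.9 and 281.4 TPM in SD samples. SD sample 5 lay among the EHBR samples, and the log2 difference was 1.22 (SE 0.27, adjusted p = 0.0211, limma), with 1.41 and 0.92 within the sets. Its call was lost without EHBR sample 2 or 4 or SD sample 1 or 4. Ttr, which binds Rbp4 in blood, averaged 24737 ± 1684 TPM in EHBR and 27503 ± 1961 TPM in SD and did not pass (adjusted p = 0.476, limma).

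Both carotene-cleaving enzymes were tested, and Bco1, which makes retinal from beta-carotene, rose. It showed 17.8, 24.9, 19.2, 27.1 and 22.0 TPM in EHBR samples, against 14.3, 4.77, 5.35, 3.48 and 13.0 TPM in SD samples. All EHBR samples lay above all SD samples, although SD samples 1 and 5 came close. The log2 difference was 1.50 (SE 0.32, adjusted p = 0.0189, limma), with 1.38 and 1.68 within the sets, and the call was lost without EHBR sample 2 or 4. Of 15 tested retinol and retinal oxidoreductases, 2 rose and 0 fell, and both are alcohol dehydrogenases with many substrates. Adh1, listed as Adh6 and matched by NCBI gene ID, is the class of enzyme that oxidises ethanol and retinol. It averaged 894 ± 161 TPM in EHBR and 449.5 ± 172 TPM in SD. Its row spans bases 243550627 to 243687857 of chromosome 2, and whether it takes in other Adh genes was not tested. The difference for Adh1 was 1.08 (SE 0.28, adjusted p = 0.0443, limma), with 1.30 and 0.75 within the sets. Adh5, the formaldehyde-clearing class, averaged 114.6 ± 13.3 TPM in EHBR and 71.5 ± 17.9 TPM in SD, and its difference was 0.70 (SE 0.17, adjusted p = 0.0310, limma), with 0.83 and 0.51 within the sets. Adh1 lost its call without any 1 EHBR sample or SD sample 2 or 3, and Adh5 without EHBR sample 1, 2 or 3 or SD sample 5.

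Of 4 tested other enzymes that can make retinoic acid from retinal, 0 rose and 1 fell. Aox3, an aldehyde oxidase, showed 0.753, 0.667, 0.737, 0.855 and 0.664 TPM in EHBR samples, against 14.3, 17.7, 15.9, 2.45 and 1.59 TPM in SD samples. SD samples 4 and 5 lay near the EHBR samples but above all of them. The log2 difference was -2.29 (SE 0.53, adjusted p = 0.0265, limma), at -3.30 within samples 1 to 3 and -0.77 within samples 4 and 5, and the call was lost without any 1 EHBR sample or SD sample 1, 2 or 3. In SD, Aox3 and Aldh1a7 were thus both lower in samples 4 and 5 than in samples 1 to 3. The related Aldh1a3, Aldh8a1 and Aox1 did not pass the test. Aox1 averaged 147.8 ± 8.54 TPM in EHBR and 87.7 ± 48.6 TPM in SD, and differed by 0.39 within samples 1 to 3 and by 1.81 within samples 4 and 5. Over all samples its difference was 0.96 (adjusted p = 0.153, limma), and a term for the division by number brought it past the threshold (adjusted p = 0.0425, limma).

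Retinoic acid breakdown had 1 tested gene outside the members, Cyp2c22, a rat liver cytochrome P450 that hydroxylates retinoic acid. It averaged 1285 ± 185 TPM in EHBR and 1465 ± 380 TPM in SD and did not pass (log2 difference -0.16, adjusted p = 0.603, limma). Cyp2c genes are related paralogs, so some of its reads may be split, which was not tested. Of 14 tested receptors and co-regulators, 0 were called. Rxra, the partner of the retinoic acid receptors and the most abundant of them, averaged 137.5 ± 36.3 TPM in EHBR and 114.9 ± 53.4 TPM in SD (log2 difference 0.37, adjusted p = 0.540, limma). Of 6 tested known retinoic acid targets outside the members, 0 were called. Rarres2, which encodes chemerin and was the most abundant of these, averaged 1611 ± 118 TPM in EHBR and 1875 ± 341 TPM in SD (log2 difference -0.20, adjusted p = 0.371, limma). Rarres1, named after its values were seen because it came nearest to the threshold, averaged 42.0 ± 9.33 TPM in EHBR and 89.1 ± 40.0 TPM in SD. It differed by -0.98 over all samples (adjusted p = 0.0556, limma), by -1.53 within samples 1 to 3 and by -0.17 within samples 4 and 5. It was called lower with numbers 1 to 3 alone, without SD sample 4 or 5, with a term for the division by number, and under each of the other scalings, among them median centring (-1.15, adjusted p = 0.0188, limma). A p that misses the threshold does not show that these genes were equal in both strains.

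The labelled tissue was checked against marker genes. All 8 hepatocyte markers were tested and 0 were called, with a summed level of 119252 to 136099 TPM in EHBR samples against 95856 to 125807 TPM in SD samples. Of 6 tested sinusoidal endothelial markers, 3 rose, namely Stab1, Stab2 and Kdr, where 3.82% of all tested genes were called higher. The summed level of the list was 79.99 to 107.4 TPM in EHBR samples against 54.69 to 71.94 TPM in SD samples. Those ranges did not overlap, as was the case for 6.45% of single tested genes with EHBR above SD. The part of this shift in the member values was not tested. Stab1 and Kdr lost their calls after median centring, and Stab1 also without EHBR sample 2 or 3. Kupffer cell markers, with 0 of 8 called, summed to 337.5 to 624.3 TPM in EHBR samples against 336.7 to 397.2 TPM in SD samples. Cholangiocyte markers, with 0 of 2 called, summed to 12.28 to 13.94 TPM in EHBR samples against 15.34 to 17.54 TPM in SD samples, which did not overlap either. For summed levels of lists, no share over all genes was available for comparison.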

How the data were processed

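Poly(A) RNA was extracted with TRIzol and made into directional libraries, per the labels' protocols. Reads were handled with HISAT2 2.1.0, Trimmomatic 0.38, featureCounts 1.6.3 and FastQC 0.11.7 on rn6, per the submitters' processing notes. No label says whether strand was used in counting. The authors deposited 3 tables of 32883 genes, with values in TPM, FPKM and upper-quartile FPKM. Whole reads per gene were recovered from the deposited upper-quartile FPKM, within a tolerance of 0.002 reads, and used only to give depth and reads per gene. Members were matched by symbol.

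Strains were compared with limma 3.58.1 (R 4.3.3), using the trend option, on log2 TPM with a pseudocount of 1. The 11083 genes tested reached 1 TPM in 5 or more of the 10 samples. The test was two-sided, with strain as its 1 factor, Benjamini-Hochberg adjustment over all tested genes and a threshold of 0.05, and it was checked on simulated data. Python 3.11.15 with pandas 2.3.3, numpy 2.4.6 and matplotlib 3.10.9 made tables and figures. The members and gene lists were chosen with earlier results of these data known. The genes named are the members, Abcc2, every called gene of the 8 retinoid lists or the most abundant of a list without one, the nearest tested gene on each side of each member and any called among 3 per side, and the 3 genes most like each of 4 members. Ttr, Rarres1, Aldh1a3, Aldh8a1, Aox1, Dgat1, Cyp26c1, the cell type markers and the Rdh16 row were named outside that rule. Of 89 retinoid names, 3 (Ces1e, Rbp5 and Adh4) matched no row, and 11 had a row at 0 in all samples. Alternatives were FPKM, upper-quartile FPKM, pseudocounts of 0.1 and 5, no filter, a filter at a mean of 5 TPM, median centring, quantile normalisation, a replicate block, a term for the division by number, each set of numbers alone, and leaving out each sample.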

Additional observations from a re-analysis of the deposited data

Results flagged for a closer look

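Samples 4 and 5 lay above samples 1 to 3 for Aldh1a7 in EHBR and below them in SD, without exception in either strain. The change in EHBR minus that in SD was 3.735 on the log2 scale, and this difference was not tested. Rarres1 was likewise higher in samples 4 and 5 than in samples 1 to 3 of EHBR and lower in those of SD, with a value of 1.3627 that was not tested.

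Single samples stood apart from the other 4 of their strain for several genes. SD sample 5 was high for Pnpla3, at 82.88 TPM, and for Fabp5, at 281.4 TPM. SD sample 4 was high for Acsm5, at 140.5 TPM. EHBR sample 4 was high for Anxa1, at 9.827 TPM, and EHBR sample 2 for Rbm46, at 2.633 TPM. By chance about 1 group in 20 is marked in this way. The rule was applied in both strains to most of the genes named, so several marks are expected by chance.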

How the results depend on the processing

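None of the genes named that were called changed sign under any alternative run. Of all 604 called genes, 5 changed sign with FPKM and 5 with upper-quartile FPKM. Of the other retinoid genes, 7 were called higher and 2 lower. The counts were 4 higher and 3 lower with FPKM, 2 and 3 with upper-quartile FPKM or median centring, 7 and 1 with a pseudocount of 5, 5 and 1 with no filter, and 11 and 3 with a term for the division by number. They were 6 and 4 with numbers 1 to 3 alone and 3 and 0 with numbers 4 and 5 alone. Leaving out 1 sample gave 3 to 6 higher and 1 to 3 lower. With a replicate block 8 were higher and 2 lower, and all 9 called genes kept their call; over all genes it gave 639 higher and 222 lower, against 423 and 181. The deviations of samples with the same number correlated at 0.13, 0.29, 0.07, 0.25 and 0.27, so the numbers were not taken as pairs, and not every sample correlated best with its own number. Over all genes the counts were 307 higher and 215 lower with FPKM, 219 and 262 with upper-quartile FPKM, 193 and 266 with median centring, 314 and 290 with quantile normalisation, and 1506 and 372 with a term for the division by number. Upper-quartile FPKM or median centring cost Dgat2, Fabp5, Bco1, Adh1 and Adh5 their calls, FPKM cost Fabp5, Adh1 and Adh5, and no filter cost Adh1, Adh5 and Aox3. Aox3 was also lost with a pseudocount of 5, Adh5 with quantile normalisation, and Bco1 and Adh5 with numbers 1 to 3 alone. Of the members, Rbp4 turned to 0.14 with quantile normalisation, Aldh1a1 to -0.03 with numbers 4 and 5 alone and Dhrs3 to 0.01 without EHBR sample 4, all from differences that were not called. With numbers 4 and 5 alone, 1 of the 9, Stra6l, kept its call. The cause was not tested. Few reads limit Cyp26b1 and, in SD samples 4 and 5, Aldh1a7. Those SD libraries were the deepest of all, at 19.6 M reads each. The Aldh1a7 difference was 4.12 with a pseudocount of 0.1 and 2.64 with one of 5. Cyp26a1 gave 1.85 and 0.89. Its difference was 1.24 (SE 0.37) with upper-quartile FPKM and 1.34 (SE 0.40) with median centring. Whether the 2 members called kept their calls under the alternatives is not given here.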
